A study of Mus musculus with 15 samples.

Results

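The 8 genes Star, Tspo, Cyp11a1, Fdx1, Fdxr, Hsd3b1, Hsd3b6 and Por were examined in ovarian RNA. They were taken by name, for their place in the steps from cholesterol to progesterone, and each had 1 row among the 27907 genes of the deposited table. Ovaries of 15 females were sequenced, 1 library per mouse, from 7 HSD17B1-KI and 8 WT mice. HSD17B1-KI mice were homozygous for HSD17B1 Ser143Ala, a serine to alanine point mutation in the active site of the enzyme that turns estrone into estradiol. The mutation was made by CRISPR/Cas9 and is carried by every cell of the animal. WT mice carried no mutation and came from the same breeding of heterozygous parents. All females were 6 months old and were sampled in estrus.

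Steroid hormones are made from cholesterol, which must first cross from the outer to the inner mitochondrial membrane. STAR carries out this step, which is the acutely regulated one, and TSPO is an outer membrane protein that binds cholesterol. On the inner membrane CYP11A1 cuts the side chain of cholesterol and releases pregnenolone, with electrons that pass from NADPH through ferredoxin reductase (FDXR) and ferredoxin (FDX1). A 3β-hydroxysteroid dehydrogenase then turns pregnenolone into progesterone, and the mouse has several such isoenzymes. HSD3B1 is the isoform known from the ovary and the adrenal gland, and HSD3B6 is better known from Leydig cells, the adrenal zona glomerulosa and the placenta. POR, in the endoplasmic reticulum, gives electrons to the microsomal P450 enzymes that act after progesterone, CYP17A1 and CYP19A1. Theca, interstitial, luteal and granulosa cells of the ovary express these genes to different degrees.

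The libraries held between 39092867 and 69972608 reads counted on genes in HSD17B1-KI (median 43611091) and between 26544745 and 72362981 in WT (median 45313571.5). A normalized count is the number of reads on a gene divided by 1 size factor per library. Markers of granulosa cells (Amh, Fshr, Cyp19a1, Inhbb and Foxl2) and of oocytes (Zp2, Zp3, Gdf9, Bmp15 and Oosp1) were present in every library, as the label ovary requires. Their sums were 23692 to 65341 and 6007 to 10050 normalized counts in HSD17B1-KI. In WT they were 25936 to 56256 and 6920 to 11474. Of the 5 adrenal cortex markers, Cyp11b2 did not exceed 5.00 normalized counts in any mouse, Cyp21a1 did not exceed 22.1 and Mc2r did not exceed 37.3, whereas Cyp11b1 ran from 2.38 to 2325 and Mrap from 784 to 8632. The oviduct marker Ovgp1 reached 203321 normalized counts in WT 1 and 127890 in WT 8 and lay between 108 and 14963 in the other mice, and values without WT 1 and WT 8 are given where they change a result. The level of Hsd17b1, 5459 to 17386 normalized counts in HSD17B1-KI and 6480 to 14111 in WT, does not check the genotype, since a point mutation need not change it.

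The starts of the genes for the 2 isoenzymes of the dehydrogenase step, and for the pair that passes electrons to CYP11A1, are shown because 1 gene of each pair, Hsd3b6 and Fdx1, had an unadjusted p under 0.05 between the genotypes and the other had not. The 250 bases before the start site are from RefSeq on GRCm38.p6, 5′ to 3′ on the strand of the gene, in lower case with every match to a motif in capitals. Entries were found for 6 of the 8 genes. The motifs searched, on both strands, were the NR5A1 element AAGGTCA, the core TGACG of a cyclic AMP response element, the TATA motif TATAAA and the SP1 box GGGCGG. The regions are chr3:98814444-98814693 (Hsd3b6), chr3:98859795-98860044 (Hsd3b1), chr9:51963603-51963852 (Fdx1) and chr11:115276970-115277219 (Fdxr), all on the minus strand.
Hsd3b6: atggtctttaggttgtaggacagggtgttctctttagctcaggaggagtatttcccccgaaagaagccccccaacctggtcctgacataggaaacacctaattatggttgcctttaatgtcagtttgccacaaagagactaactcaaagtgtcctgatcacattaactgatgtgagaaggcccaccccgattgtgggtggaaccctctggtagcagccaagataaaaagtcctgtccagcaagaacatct
Hsd3b1: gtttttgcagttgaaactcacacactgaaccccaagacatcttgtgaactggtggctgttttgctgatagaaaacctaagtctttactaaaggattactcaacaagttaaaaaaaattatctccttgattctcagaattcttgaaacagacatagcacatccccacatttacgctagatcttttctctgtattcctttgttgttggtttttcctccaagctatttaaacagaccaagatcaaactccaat
Fdx1: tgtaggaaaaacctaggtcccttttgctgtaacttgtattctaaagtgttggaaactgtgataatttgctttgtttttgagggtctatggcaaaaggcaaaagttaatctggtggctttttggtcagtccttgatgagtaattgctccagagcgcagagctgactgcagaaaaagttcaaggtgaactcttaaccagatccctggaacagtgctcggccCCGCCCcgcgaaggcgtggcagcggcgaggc
Fdxr: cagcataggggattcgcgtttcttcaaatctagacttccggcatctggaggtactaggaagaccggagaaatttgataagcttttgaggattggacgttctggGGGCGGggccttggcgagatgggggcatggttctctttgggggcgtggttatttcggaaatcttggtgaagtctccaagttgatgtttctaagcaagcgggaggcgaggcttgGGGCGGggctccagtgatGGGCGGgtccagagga
The windows of Hsd3b6 and Hsd3b1 held none of the 4 motifs. That of Fdx1 held 1 SP1 box, read on the other strand, and that of Fdxr held 3. Por held 4 SP1 boxes in its window, and 1 of the 2 start sites of Cyp11a1 had 1 TGACG. That window, chr9:57997774-57998023, lies upstream of the interval given for Cyp11a1 below and does not adjoin it. The window of the other start site, chr9:58014702-58014951, lies within that interval and held none of the motifs. The window of Por, chr5:135688895-135689144, also lies within the interval given for Por below. That of Fdxr overlaps the interval given for Fdxr, and its SP1 boxes from -34 to -29 and from -16 to -11, counted from the start site, lie in the overlap. That of Fdx1 does not adjoin its interval. Of the 32817 windows of this length in the table, 4.08% held AAGGTCA, 17.7% TGACG, 12.4% TATAAA and 32.7% GGGCGG. The windows of Hsd3b6 and Hsd3b1 matched at 63.8% of 213 aligned bases, and those of the unrelated genes Fdx1 and Fdxr matched at 62.5% of 216. Bases opposite a gap were not counted. A single other pair does not show how often unrelated windows match this well, so no likeness of the isoenzyme windows is read from these values. A match is a description of the letters and not a binding site.

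The genotypes were compared on log2(normalized count + 1) with limma-trend over the 21525 genes whose mean was 2 normalized counts or more, two-sided, and p-values were adjusted with the Benjamini-Hochberg method over these genes. All 8 genes passed this filter. Genes with an adjusted p under 0.05 are called differentially expressed (DE). Of the 8 genes, 1 was DE by limma-trend, Hsd3b6, which was higher in HSD17B1-KI, against 0.214% of all genes tested. It was also the 1 gene of the 8 called by edgeR, which called 0.232% of all genes, and the 1 called by DESeq2, which called 2.30% of the 19790 genes it tested. At an unadjusted limma p under 0.05 there were 2 of the 8, Fdx1 and Hsd3b6, where 10% of all genes passed. The log2 fold changes of the 8 genes ran from 0.01 to 1.97 with a median of 0.31, while the median over all genes tested was -0.02 and 44.8% of all genes had a positive value. All 8 were positive by limma-trend, but that of Fdxr was -0.02 by edgeR and by DESeq2.

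**Figure D1:**
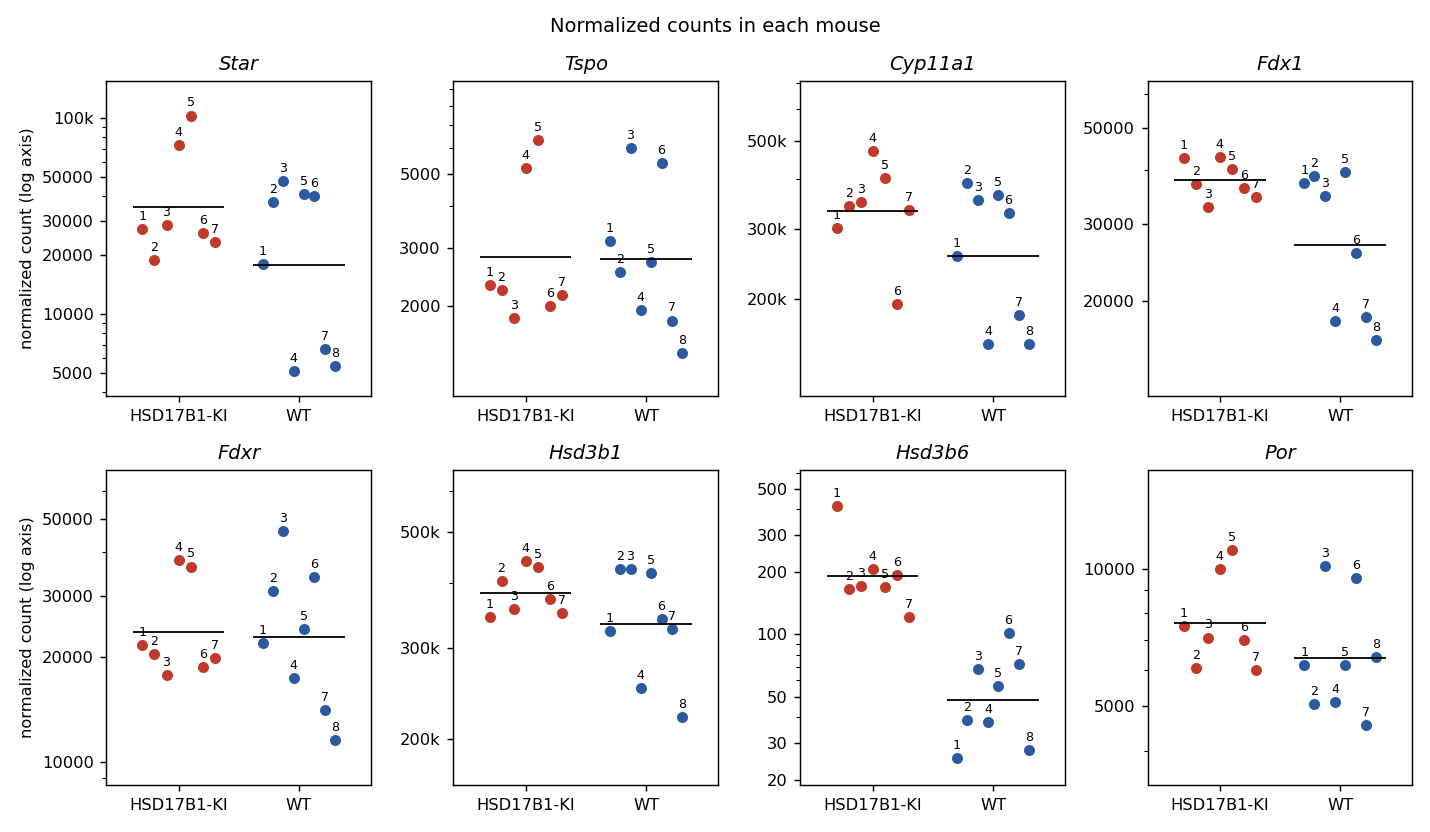
Normalized counts (log axis) of the 8 genes in the 7 HSD17B1-KI mice (red) and the 8 WT mice (blue), 1 point per mouse with its replicate number, and the mean of the log2 values as a line. The Hsd3b6 points of all HSD17B1-KI mice lie above every WT point, and for the other genes the genotypes overlap.

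Star, on the plus strand of chromosome 8 (ENSMUSG00000031574, chr8:25806555-25815982 on GRCm38), varied most of the 8 genes, 20.1-fold between the lowest and the highest mouse. Its normalized counts in HSD17B1-KI mice 1 to 7 were 27217, 18934, 28525, 73441, 103552, 26104 and 23290. In WT mice 1 to 8 they were 18097, 37296, 47695, 5151, 41061, 40363, 6635 and 5455. HSD17B1-KI 4 and 5 stood above every WT mouse, WT 4, 7 and 8 were lowest by far, WT 1 was also below every HSD17B1-KI mouse, and the rest overlapped. The means were 43009 ± 32417 (SD, n = 7) and 25219 ± 18208 (SD, n = 8), a ratio of 1.71. The log2 fold change was 0.99 with a standard error of 0.57 and did not pass (limma-trend adjusted p = 0.600). Its 95% interval ran from 0.857-fold to 4.60-fold, and the exact permutation test over all 6435 divisions of the mice gave p = 0.139.

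Tspo (ENSMUSG00000041736, chr15:83563592-83574203, plus strand) had about the same mean in both genotypes. The normalized counts were 2312, 2230, 1848, 5197, 6343, 2007 and 2165 in HSD17B1-KI. In WT they were 3136, 2526, 5976, 1943, 2721, 5381, 1811 and 1447. HSD17B1-KI 4 and 5 and WT 3 and 6 lay well above all other mice, so that each genotype held a pair of high mice. Its log2 fold change was 0.01 with a standard error of 0.34 (limma-trend adjusted p = 0.992), and its interval, 0.612-fold to 1.67-fold, leaves differences within this range undetected. Its exons share 53 of 1051 bases with those of Mcat on the opposite strand.

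Cyp11a1 (ENSMUSG00000032323, chr9:58006411-58027023, plus strand) had 301377, 342681, 349689, 470912, 403534, 193411 and 334555 normalized counts in HSD17B1-KI. The WT values were 255925, 390701, 355274, 154098, 364342, 327949, 181600 and 153420. The lowest 3 mice were WT 4, 7 and 8, the same mice that were lowest in Star, followed by HSD17B1-KI 6. The log2 fold change of 0.38 had a standard error of 0.24, with limma-trend adjusted p = 0.656, exact permutation p = 0.166 and an interval of 0.908-fold to 1.86-fold. Of the 4804 exon bases of Cyp11a1, 145 are shared with Gm17322 on the same strand.

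Fdx1 (ENSMUSG00000032051, chr9:51943306-51963556, minus strand) was even among HSD17B1-KI mice and split among WT mice. The HSD17B1-KI values were 42666, 37091, 32918, 42818, 40317, 36420 and 34618 normalized counts, a coefficient of variation of 10.2%. The WT values were 37363, 38709, 34857, 17946, 39610, 25730, 18356 and 16266, with a coefficient of variation of 35.4%. Again WT 4, 7 and 8 were lowest, while 3 HSD17B1-KI mice exceeded all WT mice and all 7 exceeded the WT mean. The log2 fold change was 0.50 with a standard error of 0.20 and an interval of 1.05-fold to 1.89-fold, and it did not pass over all genes (limma-trend adjusted p = 0.406). The exact permutation test of Fdx1 alone gave p = 0.0468, unadjusted. Without any single one of HSD17B1-KI 1, 2, 4, 5, 6 or 7 or of WT 4, 6, 7 or 8 this p was between 0.0503 and 0.0822.

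Fdxr (ENSMUSG00000018861, chr11:115268024-115277050, minus strand) passes electrons to FDX1. Its normalized counts were 21702, 20413, 17778, 38035, 36428, 18703 and 19867 in HSD17B1-KI. They were 22019, 31044, 46094, 17384, 24151, 34084, 14046 and 11578 in WT. The highest values were those of WT 3, HSD17B1-KI 4 and 5 and WT 6, the 4 mice that were also highest in Tspo. Fdxr had a log2 fold change of 0.05 with a standard error of 0.28 (limma-trend adjusted p = 0.971), and the interval was 0.689-fold to 1.55-fold. The ratio of Fdx1 to Fdxr in the same library, in which the size factor cancels, was 1.65 ± 0.373 (SD, n = 7) for HSD17B1-KI against 1.23 ± 0.361 (SD, n = 8) for WT. It was above every WT mouse in 5 HSD17B1-KI mice and at 1.13 and 1.11 in HSD17B1-KI 4 and 5. On the log2 scale the difference was 0.45 with exact permutation p = 0.0600. The call depended on the scale and on single mice, since the exact p was 0.0472 for linear ratios, 0.0316 without HSD17B1-KI 4, 0.0303 without HSD17B1-KI 5, 0.0344 without WT 1, 0.0420 without WT 5 and 0.0326 without WT 1 and WT 8.

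Hsd3b1 (ENSMUSG00000027871, chr3:98852194-98859794, minus strand) had the narrowest range of the 8 genes. Its normalized counts were 342888, 402779, 355484, 439507, 427959, 371858 and 349269 in HSD17B1-KI. They were 322274, 424848, 425229, 250720, 418236, 340190, 326052 and 220594 in WT. The highest and the lowest mouse differed 1.99-fold, WT 8 and WT 4 were lowest. WT 1, 4, 6, 7 and 8 were below every HSD17B1-KI mouse, all 7 of which exceeded the WT mean, and the genotypes overlapped from 342888 to 425229 normalized counts. A log2 fold change of 0.20 had a standard error of 0.15 and an interval of 0.928-fold to 1.43-fold (limma-trend adjusted p = 0.697), and the exact permutation p was 0.198.

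Hsd3b6 (ENSMUSG00000027869, chr3:98805504-98814443, minus strand) lies on the same strand of chromosome 3 as Hsd3b1 and was higher in every HSD17B1-KI mouse than in any WT mouse. Its normalized counts were 413, 166, 171, 206, 170, 194 and 121 in HSD17B1-KI mice 1 to 7. In WT mice 1 to 8 they were 25.5, 38.8, 68.2, 37.8, 56.6, 101, 72.2 and 27.7. The groups did not overlap, with HSD17B1-KI 7 at 121 and WT 6 at 101 as the nearest pair. Of all genes tested, 0.274% had such a gap in this direction. The means were 206 ± 95.3 (SD, n = 7) and 53.5 ± 26.1 (SD, n = 8). The log2 fold change was 1.97 with a standard error of 0.31, or 3.91-fold with an interval of 2.49-fold to 6.15-fold (limma-trend adjusted p = 0.0239). By edgeR the adjusted p was 0.0242 and by DESeq2 6.62e-07, and the exact permutation test gave p = 0.000311. The libraries held 112 to 356 reads on Hsd3b6 in HSD17B1-KI and 15 to 81 in WT. The limma-trend adjusted p rose above 0.05 when HSD17B1-KI 2 (0.0612), WT 2 (0.0646), HSD17B1-KI 4 (0.0529) or WT 4 (0.0535) was left out, with log2 fold changes of 2.00, 1.92, 1.95 and 1.92, and without WT 1 and WT 8 together (0.0679, log2 fold change 1.69).

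**Figure D2:**
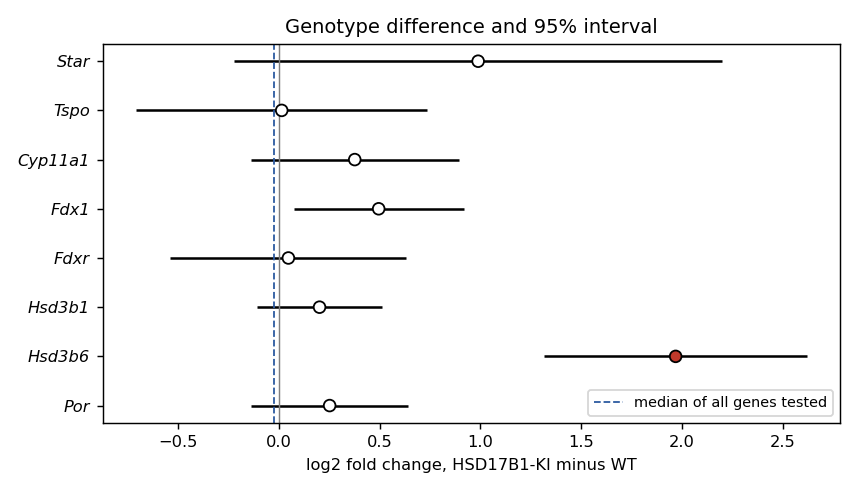
Log2 fold change (HSD17B1-KI minus WT) of the 8 genes from limma-trend with its 95% interval, filled red where the adjusted p was under 0.05, and the median of all genes tested as a dashed line. Hsd3b6 at 1.97 stands apart from the others, which run from 0.01 for Tspo to 0.99 for Star with wide intervals.

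The Hsd3b6 counts were also set against those of Hsd3b1 in the same library. This ratio uses the same Hsd3b6 reads and is no separate evidence of a difference. Hsd3b1 varied only 1.99-fold over the mice, against 16.2-fold for Hsd3b6. There were 1.21, 0.411, 0.480, 0.468, 0.396, 0.522 and 0.348 Hsd3b6 counts per 1000 Hsd3b1 counts in HSD17B1-KI. In WT there were 0.0790, 0.0914, 0.160, 0.151, 0.135, 0.297, 0.222 and 0.125. The groups again did not overlap. The mean ratio per 1000 was 0.547 ± 0.296 (SD, n = 7) for HSD17B1-KI against 0.158 ± 0.0715 (SD, n = 8) for WT, a difference of 1.77 on the log2 scale with exact permutation p = 0.000311. In both genotypes Hsd3b6 was thus a minor form beside Hsd3b1.

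Markers of theca cells, which also express steroidogenic genes, were set beside Hsd3b6 as a description, without a test of their relation. The theca marker Insl3 ran from 29.4 to 131 normalized counts in HSD17B1-KI and from 18.1 to 37.0 in WT, and HSD17B1-KI 1 was highest in both Insl3 and Hsd3b6. HSD17B1-KI 4 and 5, with 29.4 and 34.2 of Insl3 and 224 and 254 of Cyp17a1, had 206 and 170 normalized counts of Hsd3b6. HSD17B1-KI 2 and 3, with 46944 and 56551 of Cyp17a1, had 166 and 171 of Hsd3b6. HSD17B1-KI 6 and 7, with 24106 and 41683 of Cyp17a1, had 194 and 121 of Hsd3b6. The summed theca and interstitial markers (5 of 5 tested) ran from 6303 to 67531 normalized counts in HSD17B1-KI (median 51238) and from 5748 to 31634 in WT (median 12212). Limma-trend called none of the 5. Their log2 fold changes were 1.88 for Cyp17a1, 1.17 for Insl3, 0.28 for Hhip, 0.06 for Ptch1 and 0.04 for Gli1. That of Insl3 had an unadjusted limma-trend p of 0.000891 and an adjusted p of 0.110, and the study itself, with DESeq2, reported Insl3 as upregulated. The part of theca cells in the Hsd3b6 difference was not tested.

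Reads of these isoenzymes can be confused where their sequences are identical. The coding sequences of Hsd3b6 and Hsd3b1, 1122 bases each, matched at 90.0% of the bases. The longest stretch shared by their transcripts was 72 bases, 38 of the 1753 windows of 50 bases in Hsd3b6 occurred in Hsd3b1, and none of the 1703 windows of 100 bases did. Hsd3b6 was closer to Hsd3b2 (94.4%) and Hsd3b3 (94.5%), with shared stretches of 147 and 155 bases. These 2 genes did not exceed 3.82 and 2.07 normalized counts in any mouse, and Hsd3b5 did not exceed 1.19, so that all 3 were below the filter. The coding sequence of Hsd3b4 matched at 82.4%, with a shared stretch of 74 bases. The deposited table had no gene of this name, so its expression could not be examined. How reads that match several genes were counted is not given in the sources used here, and the part of such reads in the Hsd3b6 counts was not tested.

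Por (ENSMUSG00000005514, chr5:135670033-135735326, plus strand) had 7498, 6082, 7078, 10003, 10989, 6975 and 6015 normalized counts in HSD17B1-KI. It had 6157, 5074, 10164, 5125, 6166, 9540, 4547 and 6422 in WT. As for Tspo, HSD17B1-KI 4 and 5 and WT 3 and 6 were the highest mice, and the genotypes overlapped. Por had a log2 fold change of 0.25 with a standard error of 0.18 and an interval of 0.910-fold to 1.56-fold (limma-trend adjusted p = 0.698).

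Levels of different genes were compared as recovered reads per 1000 exon bases and 1000000 counted reads, which is a level per length and not a difference between genotypes. The mean level over the 15 mice was 4166 ± 698 (SD) for Hsd3b1 and 1356 ± 412 for Cyp11a1, which ranked 4 and 12 among 21322 genes with a length. Fdx1 followed at 227 ± 59.8, Fdxr at 189 ± 72.7 and Star at 173 ± 134. Tspo was at 63.6 ± 33.1, Por at 38.2 ± 10.2 and Hsd3b6 at 1.47 ± 1.18. The level of Hsd3b6 was 2.41 ± 1.09 (SD, n = 7) for HSD17B1-KI against 0.640 ± 0.303 (SD, n = 8) for WT. The 8 genes together took 1.64% of all counted reads on average, from 0.912% to 2.23%.

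The order Hsd3b1, Cyp11a1, Fdx1 held in all 15 mice, as did Por above Hsd3b6. The neighbours in the middle did not keep their order. Fdx1 was above Fdxr in 12 of 15 mice, Fdxr above Star in 11, Star above Tspo in 12 and Tspo above Por in 13. With the length of the longest transcript in place of all exons, Fdx1 was above Fdxr in 7 of 15 mice and Fdxr above Star in 14, so that no order between Fdx1 and Fdxr can be read from these levels.

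**Figure D3:**
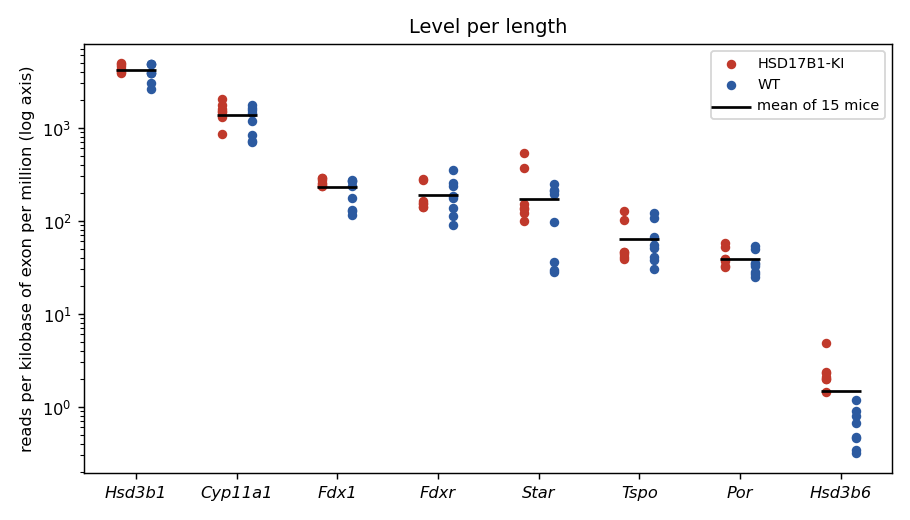
Level of each gene in reads per 1000 exon bases and 1000000 counted reads (log axis), HSD17B1-KI mice in red and WT mice in blue, with the mean of the 15 mice as a bar. Hsd3b1 at 4166 and Cyp11a1 at 1356 lie far above the other genes, and Hsd3b6 at 1.47 lies far below.

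By the adjusted p of their correlations, most of the genes varied together across the 15 mice, Hsd3b6 and in part Por excepted. All 28 pairs had a positive Pearson's r on log2(normalized count + 1), and 17 of them had an adjusted p under 0.05 (permutation test, Benjamini-Hochberg over the 28 pairs). The 11 that did not pass were the 7 pairs with Hsd3b6, Por with Cyp11a1 (r = 0.54), Fdx1 (0.42) and Hsd3b1 (0.42), and Tspo with Fdx1 (0.46). Tspo with Fdx1 did pass by Spearman's rho (0.625, adjusted permutation p = 0.0276). For the 17 that passed, between 86.9% (Tspo with Hsd3b1) and 99.8% (Cyp11a1 with Hsd3b1) of all genes had a lower r to the first gene of the pair. The pairs share libraries and their size factors, and a pooled r includes any difference between the genotypes. No gene's values fell into separate clusters by the rule used, a gap of more than 50% of the range with at least 2 mice on each side. In whole ovaries, fewer cells of a type and less RNA per cell cannot be told apart.

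The closest pair was Tspo and Fdxr, an outer membrane protein and a matrix enzyme. Pearson's r was 0.93 (permutation p = 1e-05, the smallest it can give, adjusted p = 0.00028) and Spearman's rho was 0.96 (permutation p = 1e-05). It was 0.99 within the 7 HSD17B1-KI mice and 0.92 within the 8 WT mice (exact permutation p = 0.00298 and 0.00151), and 0.90 without HSD17B1-KI 5 and WT 3, the 2 mice farthest from the median of Tspo. Por rose with Tspo as well (r = 0.82, adjusted permutation p = 0.00156, rho = 0.61 with permutation p = 0.0183, and r = 0.69 without the same 2 mice). In these pairs HSD17B1-KI 4 and 5 and WT 3 and 6 were the high mice. These 4 mice also had 107 to 254 normalized counts of the theca marker Cyp17a1, where all others had 2033 to 56551. Of the adrenal cortex markers, they had 1146 to 2325 of Cyp11b1, where the others had at most 195, and 6347 to 8632 of Mrap, where the others had 784 to 5254. The other adrenal markers were not raised in them, with Cyp21a1 at 0.840 to 3.66, Mc2r at no more than 17.1 and Cyp11b2 at no more than 5.00. Of the 5 luteal markers, Parm1 was at 3001 to 6336 in these mice and 987 to 3287 in the others, while Sfrp4, Ptgfr, Akr1c18 and Prlr lay within the range of the others. The part of any cell type in the high Tspo values was not tested.

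Star and Cyp11a1, the transport and the cleavage step, had r = 0.89 (permutation p = 5e-05, adjusted p = 0.000336) and rho = 0.88 (permutation p = 6e-05). Within WT mice r was 0.99 (exact permutation p = 0.000843), and within HSD17B1-KI mice it was 0.58 (exact permutation p = 0.188). Whether r differed between the genotypes was not tested. Without WT 4 and WT 8, the 2 mice farthest from the median of Star, r was 0.78 (permutation p = 0.00149). The ratio of Star to Cyp11a1 was 0.121 ± 0.0698 (SD, n = 7) for HSD17B1-KI against 0.0802 ± 0.0418 (SD, n = 8) for WT, and was 0.0334 to 0.0365 in WT 4, 7 and 8 (exact permutation p = 0.170).

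Cyp11a1 and Hsd3b1, which catalyse successive reactions, had r = 0.85 (adjusted permutation p = 0.00028) and rho = 0.92 (permutation p = 1e-05), with r = 0.69 without WT 4 and WT 8. Star and Hsd3b1 had r = 0.86, rho = 0.85 and r = 0.72 without these 2 mice (adjusted permutation p = 0.000336 for r). Fdx1 and Hsd3b1 had r = 0.83 (adjusted permutation p = 0.00112, rho = 0.70), and r was 0.55 without WT 4 and WT 8. With its own reductase Fdxr, Fdx1 had r = 0.61 (adjusted permutation p = 0.0251) and rho = 0.67 (adjusted permutation p = 0.0178). It was 0.73 within HSD17B1-KI and 0.74 within WT (exact permutation p = 0.0700 and 0.0454). The pooled relation rested on few mice, since r was 0.40 with permutation p = 0.179 without WT 4 and WT 8. The adjusted permutation p was above 0.05 without HSD17B1-KI 4 (0.0519), WT 7 (0.0728) or WT 8 (0.129). It was also above 0.05 without WT 1 and WT 8 together (r = 0.49, 0.133) and on normalized counts (r = 0.49, 0.0869). WT 4, 7 and 8, the mice low in Star, Cyp11a1 and Fdx1, also had the lowest values of the luteal marker Sfrp4, 3615 to 4325 normalized counts against 6338 to 54287 in the others, and of the luteal marker Prlr, 12035 to 14895 against 16771 to 39159. The other 3 luteal markers did not set these mice apart, since Ptgfr (501 to 1020) and Akr1c18 (65.0 to 286) overlapped with HSD17B1-KI 6 (569 and 98.8) and Parm1 (1212 to 1624) was lower in HSD17B1-KI 1, 2, 6 and 7. The part of luteal cells in these correlations was not tested.

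**Figure D4:**
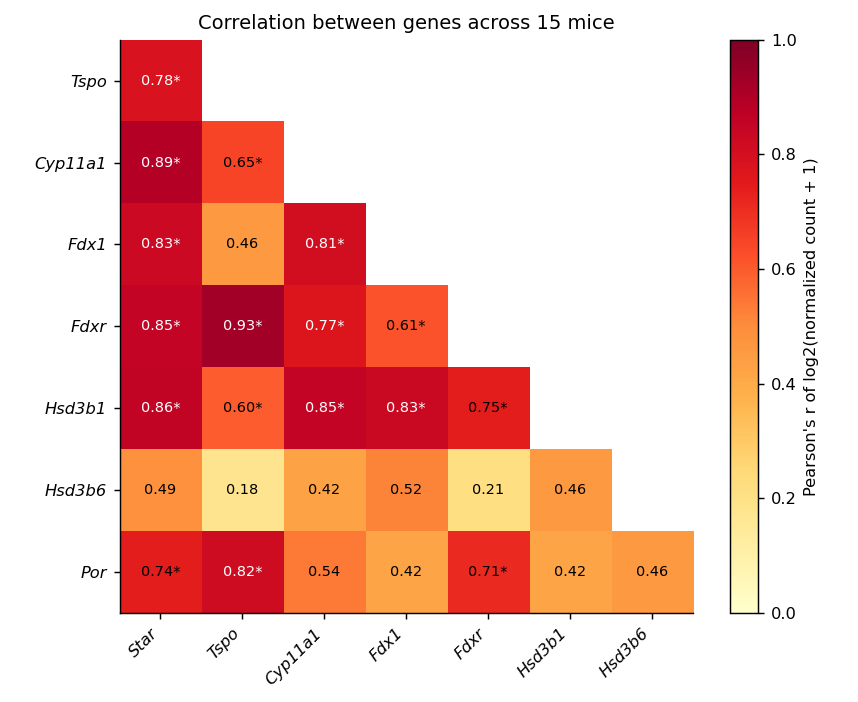
Pearson's r between the log2 values of each pair of the 8 genes across 15 mice, with an asterisk where the adjusted permutation p was under 0.05. Tspo and Fdxr have the highest value, 0.93, and the row and column of Hsd3b6 hold no asterisk.

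Hsd3b6 passed with none of the other 7 genes. Its highest r was 0.52 with Fdx1 (adjusted permutation p = 0.0743, rho = 0.46) and its lowest 0.18 with Tspo. With Hsd3b1 it had r = 0.46 (adjusted permutation p = 0.105, rho = 0.46), which was 0.06 without WT 4 and WT 8, -0.20 within HSD17B1-KI and 0.47 within WT. Leaving out WT 2 brought the pair with Hsd3b1 under 0.05 (r = 0.57, adjusted permutation p = 0.0422), and the pair with Fdx1 went under 0.05 without WT 1 (0.0231) or WT 2 (0.0357).

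**Figure D5:**
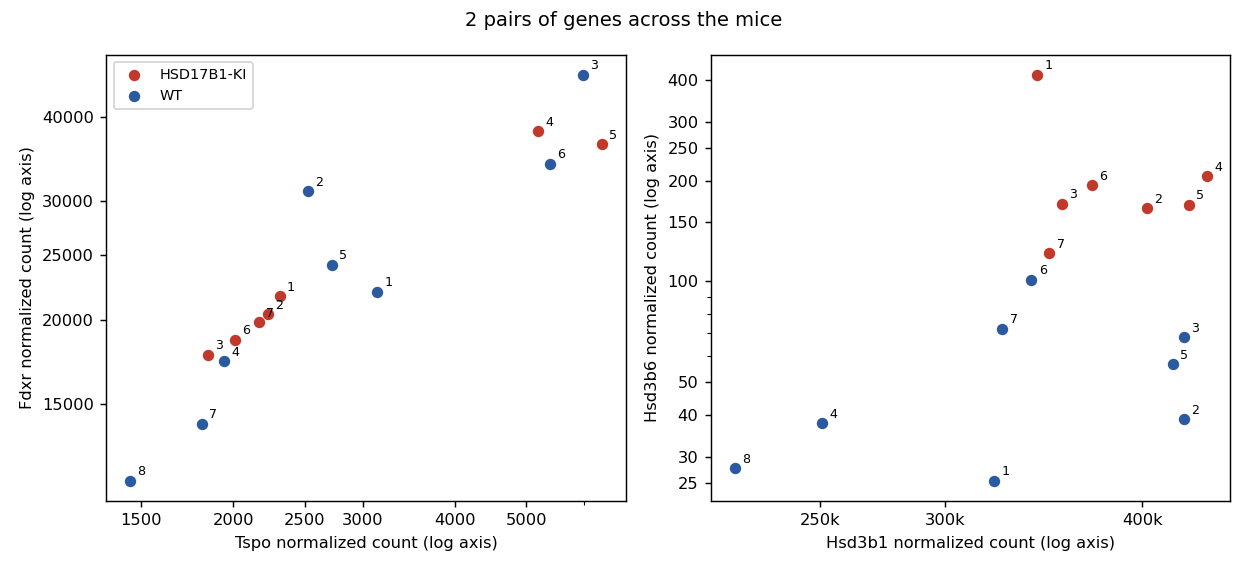
Normalized counts (log axes) of Tspo against Fdxr and of Hsd3b1 against Hsd3b6 in each HSD17B1-KI (red) and WT (blue) mouse, with replicate numbers. Tspo and Fdxr rise together in both genotypes (r = 0.93). The Hsd3b6 values of HSD17B1-KI mice lie above those of WT mice. In Hsd3b1, WT 1, 4, 6, 7 and 8 lie below every HSD17B1-KI mouse, so only part of its range holds both genotypes.

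The genes with the most similar profile over the 15 mice were looked for among the 18047 genes whose mean was 10 normalized counts or more, by Pearson's r on the log2 values. For Hsd3b6 these were Vstm4 (r = 0.97), Sod3, an extracellular superoxide dismutase (0.93), and Opn3, an opsin (0.93). Vstm4 was itself DE, with a log2 fold change of 0.83 (limma-trend adjusted p = 0.0263), and Sod3 and Opn3 had log2 fold changes of 0.59 and 0.46 (adjusted p = 0.0570 and 0.132). For Fdxr they were Pex5, the peroxisomal import receptor (0.99), Gamt, which makes creatine (0.99), and Vps52 (0.96). Tspo was followed by Pde1b (0.98), Lgals1, or galectin-1 (0.97), and Il10rb (0.97). Star was followed by Adora1, an adenosine receptor (0.94), Hibch (0.94) and Hgsnat (0.94). Cyp11a1 was followed by A430078G23Rik (0.91) and Pik3c2g (0.91), among others. Fdx1 was closest to Tmprss6 (0.92), Mterf2 (0.92) and A330094K24Rik (0.90), Hsd3b1 to Etfdh (0.93), Itga11 (0.92) and Ptp4a3 (0.91), and Por to Mcfd2 (0.96), Arpc1b (0.95) and Snx1 (0.94). Each was the highest of many values, so no test is given.

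Further genes of the same steps were described from fixed lists, of which limma-trend called none, where it called 0.214% of all genes tested. Of the other tested members of the 3β-hydroxysteroid dehydrogenase family, Hsd3b7, of bile acid synthesis, had a log2 fold change of 0.04 and Nsdhl, of cholesterol synthesis, -0.06. The 5 other electron donors, cytochrome b5 proteins and their reductases and the second ferredoxin Fdx1l, had a median log2 fold change of 0.08. They ran from -0.02 for Cyb5r3 and 0.02 for Cyb5a to 0.24 for Cyb5b and 0.33 for Cyb5r1. The 11 other genes of cholesterol delivery had a median of -0.01. They ran from -0.17 for Stard6 and -0.16 for Npc2, a lysosomal cholesterol carrier, to 0.18 for Soat1, which esterifies cholesterol. The 8 partners and relatives of TSPO had a median of -0.01, from -1.22 for Tspo2, which had at most 45.8 normalized counts, and -0.11 for Acbd3 to 0.15 for Vdac3 and 0.24 for Dbi, a TSPO ligand.

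The 10 enzymes after progesterone had a median log2 fold change of 0.44, with none called by limma-trend or DESeq2. Cyp17a1 had the highest value, 1.88, with a standard error of 1.55 (limma-trend adjusted p = 0.734), followed by Cyp21a1 at 1.20. Cyp21a1 had at most 22.1 normalized counts in any mouse, and DESeq2 gave it no adjusted p. The lowest were Cyp11b1 at -0.88 and Hsd17b7 at -0.82. The 14 regulators of these genes had a median of 0.22. DESeq2 called 3 of them, all higher in HSD17B1-KI, and limma-trend called none. Of all genes tested, DESeq2 called 2.30% and limma-trend 0.214%. The log2 fold changes given are those of limma-trend. Nr5a1, the nuclear receptor that activates many steroidogenic genes, had 25507 ± 7632 (SD, n = 7) against 15822 ± 3546 (SD, n = 8) normalized counts and a log2 fold change of 0.66 (adjusted p = 0.0271 by DESeq2 and 0.194 by limma-trend). Nr0b2, a corepressor, had 362 ± 92.4 against 212 ± 47.9 and a log2 fold change of 0.76 (adjusted p = 0.00343 by DESeq2 and 0.0915 by limma-trend). Gata4 had 17122 ± 3659 against 12089 ± 2255 and a log2 fold change of 0.49 (adjusted p = 0.0455 by DESeq2 and 0.197 by limma-trend). Lhcgr, the LH receptor, had the highest log2 fold change of the list, 0.85, with limma-trend adjusted p = 0.504, and the lowest were Gata6 at -0.23 and Crem at -0.12.

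The summed markers of the other cell types overlapped between the genotypes. Limma-trend called none of these markers, where it called 0.214% of all genes tested. The luteal markers ran from 30522 to 96060 normalized counts in HSD17B1-KI and from 18959 to 101198 in WT, and the macrophage markers from 4225 to 8715 and from 4822 to 8827. The luteal log2 fold changes differed in sign, with Sfrp4 at 1.51, Akr1c18 at 0.63, Prlr at 0.25, Ptgfr at 0.25 and Parm1 at -0.74 (limma-trend adjusted p 0.286 to 0.940). The adrenal cortex markers, mostly Mrap and Cyp11b1, ran from 1131 to 7966 and from 809 to 9857. Their log2 fold changes were 1.20 for Cyp21a1, -0.16 for Mrap, -0.88 for Cyp11b1 and -1.48 for Mc2r (limma-trend adjusted p 0.248 to 0.949), and Cyp11b2 was below the filter. The oviduct markers ran from 152 to 19708 in HSD17B1-KI and from 161 to 216797 in WT. The adipose markers ran from 2225 to 6544 and from 1907 to 7529, but their members differed. The log2 fold changes of Adipoq, Lep, Retn and Cidec were -1.82, -1.76, -1.69 and -1.53, and that of Plin1 was 0.44 (median of the list -1.69, limma-trend adjusted p 0.328 to 0.463).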

How the data were processed

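Ovarian mRNA of 7 HSD17B1-KI and 8 WT mice was sequenced from stranded libraries, 1 library per mouse. According to the submitters' processing notes, bcl2fastq 2.20 and STAR 2.7.3 were used with genome build mm10. The counting program and annotation release are not given in the sources used here. The authors deposited a signal of normalized counts for 27907 genes, made from read counts with 1 size factor for each library. Division by the smallest step gave whole reads for 100% of the values (tolerance 0.01), with 26544745 to 72362981 reads per mouse, so that genes under 10 counts are imprecise.

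The main test was limma-trend (limma 3.58.1, R 4.3.3) on log2(normalized count + 1), with a mean of at least 2, genotype as the only term and the Benjamini-Hochberg adjustment. edgeR 4.0.16 and DESeq2 1.42.0 were run on the recovered reads as alternatives. With an added count of 1, fold changes of genes with few reads are understated. Intervals are from the limma standard error. Single genes and ratios were compared with two-sided exact permutation tests over 6435 divisions of the mice. Correlations were tested with 100000 permutations, or with exact permutations within a genotype. The other alternatives were upper quartile scaling, a replicate block, pseudocounts (0.1 and 10), filters (none, and a mean of 10), linear values, Spearman's rho, values centred within each genotype, another gene length and leaving out each mouse. Leaving out WT 1 and WT 8 was chosen after seeing the data. The tests were tested on simulated data with known changes.

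The genes and lists were chosen with earlier results of these data known. The text names the 8 genes, in each list the genes called by limma-trend or DESeq2 and the 2 highest and 2 lowest log2 fold changes, the 3β-hydroxysteroid dehydrogenase family, the 3 most similar genes of each of the 8, and markers, except for 2 genes whose values are left out. Single marker genes and single mice were picked out after their values were seen. Positions are from GENCODE M21 on GRCm38, the assembly of mm10. Python 3.11.15, NumPy 2.4.6, pandas 2.3.3, SciPy 1.17.1 and matplotlib 3.10.9 were used.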

Additional observations from a re-analysis of the deposited data

Results flagged for a closer look

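Samples far from the others of their genotype were looked for in the log2 values of the 8 genes and of 3 ratios, in 22 sets of 7 or 8 mice, with Dixon's test at its 95% value, which chance passes in about 1 of 20 sets. There were 2. HSD17B1-KI 1 had 413 normalized counts of Hsd3b6, with a gap to the next mouse of 0.570 of the range of HSD17B1-KI, against a critical value of 0.568. The same mouse had 1.21 Hsd3b6 counts per 1000 Hsd3b1 counts, with a gap of 0.674 of the range. Both values rest on the same reads. Without HSD17B1-KI 1 the log2 fold change of Hsd3b6 was 1.79 (limma-trend adjusted p = 0.0330), against 1.97 with it.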

How the results depend on the processing

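The log2 fold changes of Star, Cyp11a1, Fdx1, Hsd3b1 and Por kept their direction and did not pass in any of 24 alternatives. That of Hsd3b6 was positive in all 24 and lost its call in 6. In 4 of the 6, 1 mouse was left out (1.92 to 2.00, against 1.79 to 2.12 over all fits without 1 mouse). The call was also lost under the replicate block (1.86, limma-trend adjusted p = 0.371) and without WT 1 and WT 8 (1.69, limma-trend adjusted p = 0.0679). In these 6 the number of DE genes among the 8 was 0, and it was 0 to 1 when single mice were left out. The values of Tspo and Fdxr were near 0 and changed sign. For Tspo the log2 fold change was -0.12 under the replicate block, -0.11 without WT 1 and WT 8, and -0.18 to 0.17 without single mice. For Fdxr it was -0.021 by edgeR, -0.020 by DESeq2 and on linear means, -0.092 under the replicate block, -0.12 without WT 1 and WT 8, and -0.092 to 0.19 without single mice. The number of DE genes over the whole table was 28 without the filter, 456 by DESeq2, 9 without WT 1 and WT 8, 6 to 139 without single mice and 0 under the replicate block, where 1730 genes had an unadjusted p under 0.05. The cause of these changes was not tested, except that the filter changes the number of genes tested.

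Replicate numbers were not taken to pair the mice, since same-numbered mice deviated together with correlations of -0.55 to 0.55 and only number 1 was closest to its own number. WT 8 has no partner and gives nothing to the replicate block. The log2 difference of the Fdx1 to Fdxr ratio was 0.58 without WT 1 and WT 8, 0.42 on linear ratios and 0.36 to 0.54 without single mice, with exact permutation p of 0.0303 to 0.111. The number of correlated pairs was 14 to 20 without single mice and 15 to 18 under the other alternatives. The adjusted p of Tspo and Hsd3b1 (r = 0.60) rose above 0.05 without WT 3, WT 8, HSD17B1-KI 4 or HSD17B1-KI 5. It also did so without WT 1 and WT 8 together (r = 0.53, adjusted permutation p = 0.0967) and on normalized counts (r = 0.55, adjusted permutation p = 0.0523). The adjusted p of Tspo and Cyp11a1 (r = 0.65) rose above 0.05 without WT 8. Tspo and Fdx1 passed without WT 6 and by Spearman's rho (0.625, adjusted permutation p = 0.0276), and Cyp11a1 and Por passed without WT 2. The r of Fdxr and Hsd3b6 was -0.022 without WT 1 and WT 8. With the longest transcript as length, the level was 1895 for Cyp11a1, 272 for Fdxr and 58.3 for Por.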
